A study of Mus musculus with 6 samples.

Results

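The genes of the endocytic apparatus for which visceral endoderm is best known were examined in whole male mouse embryos lacking Smchd1. They were 7 of the 24207 loci in the deposited table: *Cubn* (cubilin), *Amn* (amnionless), *Lrp2* (megalin), the clathrin adaptor gene *Dab2*, the chaperone gene *Lrpap1* and the lysosomal protease genes *Ctsl* and *Lgmn*. The set was chosen from pathway knowledge with the mutant and wildtype values of this table in view, so the contrast between genotypes is described here and not tested. Each symbol matched 1 locus, and each locus held 1 symbol.

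RNA was taken from E9.5 embryos of 2 genotypes, 3 *Smchd1+/+* (wildtype) and 3 *Smchd1MommeD1/MommeD1* (mutant). MommeD1 is a chemically induced nonsense allele of *Smchd1*, a gene needed for X inactivation to be completed or maintained in females and named for its structural maintenance of chromosomes hinge domain. The mutants were homozygous, and both genotypes came from matings of heterozygous parents. The labels name the strain background C57Bl6/J x FVB/n, whereas the study's text names a backcross of the allele to 129 T2/SvEms for this experiment. Embryos were frozen at dissection and the yolk sac of each was used to determine its genotype. The values used here are 1 FPKM (fragments per kilobase of transcript, scaled to the number of mapped fragments) per genotype, pooled by the authors over the embryos of that genotype. No spread between embryos, interval or p-value can therefore be attached to any difference given here, and the depth of the libraries is unknown. *Smchd1* itself was at 34.0 FPKM in wildtype and 2.12 FPKM in mutant embryos, a log2 ratio of -4.01. Among 12454 loci that were above 0 in both genotypes and averaged 1 FPKM or more, the median log2 ratio of mutant over wildtype was -0.0076, and 190 loci (1.53%) were at least 1.5-fold lower and 463 loci (3.72%) at least 1.5-fold higher in mutant embryos.

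Visceral endoderm is the polarised epithelium that covers the early embryo and later lines the yolk sac, where it takes up maternal protein, lipid and vitamins before the placenta works. Its apical surface carries megalin, a giant receptor of the LDL receptor family, and cubilin, a peripheral membrane protein that has no membrane anchor of its own and is brought to the surface by amnionless. The same cubilin and amnionless complex takes up the vitamin B12 carrier intrinsic factor in the intestine and filtered proteins in the kidney tubule. *Dab2* links the cytoplasmic tails of such receptors to clathrin, *Lrpap1* (also called RAP) holds newly made LDL receptor family proteins free of ligand on their way out of the endoplasmic reticulum, and cathepsin L and legumain cut the captured protein in lysosomes. Megalin is also made by the neural epithelium, and *Dab2*, the proteases and *Lrpap1* by many cell types.

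The receptor pair of cubilin and amnionless showed the largest differences. *Cubn* lies on the minus strand of chromosome 2 in the MM10 build and is listed at chr2:13276338-13491876, with 67 exons in its longest GENCODE M21 coding transcript. It was at 1.37 FPKM in wildtype and 0.157 FPKM in mutant embryos. The mutant value was 11.5% of the wildtype value, 8.68-fold lower, with a log2 ratio of -3.12. *Amn* lies on the plus strand of chromosome 12, listed at chr12:111271111-111276426, with 12 exons. It was at 0.444 FPKM in wildtype and 0.127 FPKM in mutant embryos, 28.5% of wildtype and a log2 ratio of -1.81. Both genes were thus low in either genotype, with means of 0.762 and 0.286 FPKM.

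The length of a transcript sets how many fragments stand behind an FPKM value. With the longest coding transcripts, of 11262 bases for *Cubn* and 1701 bases for *Amn*, FPKM multiplied by transcript length in kilobases, which scales with the number of fragments, was 15.4 in wildtype and 1.77 in mutant embryos for *Cubn*, against 0.756 and 0.215 for *Amn*. The *Amn* ratio therefore rests on far fewer fragments than that of *Cubn*, and the authors' program marked *Amn* as having too few alignments to be tested, whereas the other 6 genes were not so marked. Ratios of loci at this level also scatter more. Among the 3725 loci with a mean of 0.1 to 1 FPKM, a class set after the values were seen, 13.0% were at least 1.5-fold lower and 5.18% at least 2-fold lower in mutant embryos, and the median log2 ratio was 0.13. In that class 8 loci, *Cubn* included, had a ratio as low as that of *Cubn*, and 42 loci, *Amn* included, one as low as that of *Amn*. Across the genotypes the balance of the pair also differed, with 3.07 units of *Cubn* FPKM per unit of *Amn* in wildtype and 1.24 in mutant embryos.

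The promoters of both genes and of *Lrp2* are shown because these are the 3 genes that were at least 1.5-fold lower in mutant embryos. Each line gives the first 200 of the 250 bases before the RefSeq start on GRCm38.p6 (the MM10 assembly), 5′ to 3′ on the strand of the gene, leaving out those nearest to the start, with CpG dinucleotides in capitals. They lie at chr2:13491927-13492126 (minus strand), chr12:111270846-111271045 (plus strand) and chr2:69586080-69586279 (minus strand).
Cubn: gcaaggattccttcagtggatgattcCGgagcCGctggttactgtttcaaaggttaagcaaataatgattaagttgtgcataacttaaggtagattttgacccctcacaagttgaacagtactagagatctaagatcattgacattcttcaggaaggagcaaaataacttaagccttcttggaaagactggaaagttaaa
Amn: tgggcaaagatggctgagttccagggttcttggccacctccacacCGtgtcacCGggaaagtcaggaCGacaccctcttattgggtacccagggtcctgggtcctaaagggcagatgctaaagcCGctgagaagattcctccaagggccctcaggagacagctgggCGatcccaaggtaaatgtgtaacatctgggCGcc
Lrp2: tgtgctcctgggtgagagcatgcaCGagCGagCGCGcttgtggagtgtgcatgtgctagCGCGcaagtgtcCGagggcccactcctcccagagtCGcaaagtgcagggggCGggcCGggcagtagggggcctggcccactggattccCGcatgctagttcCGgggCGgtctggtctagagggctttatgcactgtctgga

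Over the whole 250 bases these 3 promoters were unlike in base composition. That of *Cubn* had a GC content of 39.6% with 2 CpG, that of *Amn* 61.2% with 11 CpG and that of *Lrp2* 66.4% with 18 CpG, where the 32851 promoters of the table had medians of 52.4% and 6. The letters GATAA (the core bound by GATA factors), GTTAAT (an HNF1 half-site), TGTTTA (a forkhead core) and CAAAGT (an HNF4 half-site) were searched on both strands. These letters occur in 22.6%, 6.43%, 12.03% and 12.6% of all promoters of this length. No match was found before *Cubn* or *Amn*, and CAAAGT was found 1 time before *Lrp2*, starting 154 bases before its start. A match or its absence in this window is a description of the letters only. DNA methylation and factor binding were not analysed here.

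*Lrp2*, the largest of the receptors, is listed at chr2:69424335-69586067 and has 79 exons. It was at 5.85 FPKM in wildtype and 3.60 FPKM in mutant embryos. The mutant value was 61.5% of the wildtype value, with a log2 ratio of -0.70. It was the single member whose mean was 1 FPKM or more that was at least 1.5-fold lower in mutant embryos, where 1.53% of all loci were, and with 1 FPKM added to both values its log2 ratio was -0.57, under 1.5-fold, so that no member of that level was then past it. By rank it was number 126 from the lowest of 12454 loci. With a transcript of 15460 bases, its FPKM multiplied by length in kilobases was 90.4 in wildtype and 55.6 in mutant embryos, well above the same product for *Cubn* and *Amn*. *Lrp2* exceeded *Cubn* 4.28-fold in wildtype and 22.9-fold in mutant embryos.

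**Figure D1:**
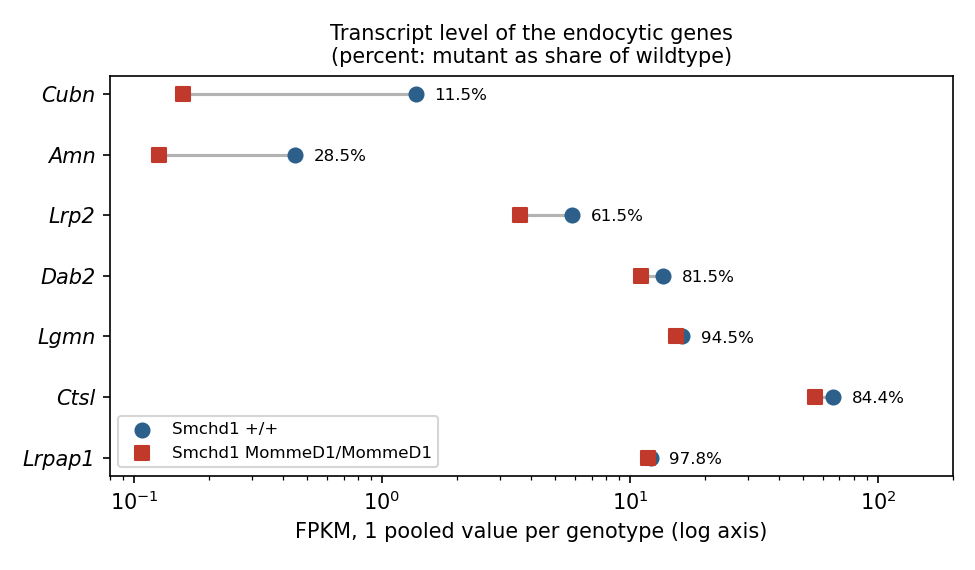
FPKM on a log axis for the 7 endocytic genes, with 1 pooled value for *Smchd1+/+* embryos (blue circles) and 1 for *Smchd1MommeD1/MommeD1* embryos (red squares), and the mutant value as a percentage of wildtype beside each pair. The pairs stand wide apart for *Cubn* (11.5%) and *Amn* (28.5%), less so for *Lrp2* (61.5%), and nearly overlap for *Lgmn* (94.5%) and *Lrpap1* (97.8%).

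The partners of the receptors differed less. *Dab2*, the adaptor, is listed on chromosome 15 (chr15:6299789-6440709). It was at 13.6 FPKM in wildtype and 11.0 FPKM in mutant embryos, 81.5% of wildtype and a log2 ratio of -0.30. *Lrpap1*, the chaperone, on chromosome 5 (chr5:35091506-35105697), was at 12.1 and 11.9 FPKM, 97.8% of wildtype and a log2 ratio of -0.03. Of the 12454 loci whose mean was 1 FPKM or more, 6.16% had a ratio as low as that of *Dab2* and 44.0% one as low as that of *Lrpap1*.

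The lysosomal proteases stood between them. *Ctsl* (cathepsin L), on chromosome 13 (chr13:64363214-64370306), was the most abundant member, at 66.1 FPKM in wildtype and 55.7 FPKM in mutant embryos, 84.4% of wildtype and a log2 ratio of -0.25. *Lgmn* (legumain, which cuts after asparagine), on chromosome 12 (chr12:102394098-102439697), was at 16.3 and 15.4 FPKM, 94.5% of wildtype and a log2 ratio of -0.08. Ratios as low as these were found at 8.92% and 32.2% of loci. The excess of *Ctsl* over *Lgmn* was 4.06-fold in wildtype and 3.62-fold in mutant embryos.

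All 7 genes thus had the lower value in mutant embryos, although *Lrpap1* was slightly higher (0.011 on the log2 scale) when both genotypes were scaled to an equal FPKM total. Of the 5 whose mean was 1 FPKM or more, 1 was at least 1.5-fold lower and none was at least 1.5-fold higher, and none was at least 2-fold lower, as 0.490% of loci were. The median log2 ratio was -0.30 over all 7 and -0.25 over those 5, beside -0.0076 for all loci of that level, 51.8% of which were lower in mutant embryos. In wildtype embryos the order of levels was *Ctsl*, *Lgmn*, *Dab2*, *Lrpap1*, *Lrp2*, *Cubn* and *Amn*. In mutant embryos it was the same but for *Dab2* and *Lrpap1*, which changed places. Among the 23097 loci with a gene symbol, *Ctsl* stood at the 94.5 percentile of level in wildtype and 93.5 in mutant embryos, and *Cubn* at 50.7 and 37.0. With pooled values it cannot be said which neighbours in this order differ beyond the spread between embryos.

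**Figure D2:**
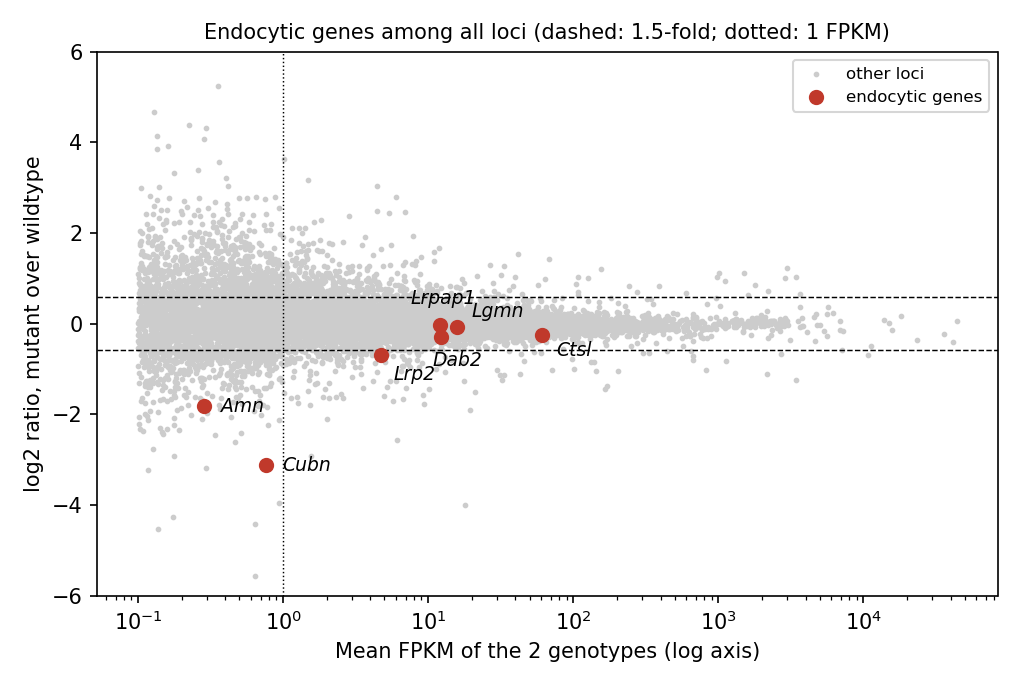
Log2 ratio of mutant over wildtype FPKM against the mean FPKM of the genotypes (log axis) for all loci whose mean was 0.1 FPKM or more (grey) and the 7 endocytic genes (red, named), with dashed lines at 1.5-fold and a dotted line at 1 FPKM. *Cubn*, at -3.12, lies near the lower edge of loci of its level, *Amn* (-1.81) is at a level where ratios scatter widely, and the 4 genes other than *Lrp2* to the right of the dotted line lie between -0.30 and -0.03.

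The genes lie on 5 chromosomes. *Cubn* and *Lrp2* are 55.9 Mb apart on chromosome 2, and *Amn* and *Lgmn* 8.83 Mb apart on chromosome 12. Loci around the receptor genes, looked at after the values were seen, were compared within 500 kb where their mean was at least 1 FPKM. Around *Cubn* there were 4, with log2 ratios from -0.21 (*Trdmt1*) to 0.55 (*Vim*). The 10 around *Lrp2* had ratios from -0.33 (*Ssb*) to 0.10 (*Klhl23*). The 20 around *Amn* ranged from -0.24 (*Ankrd9*) to 1.20 (*Ckb*, the brain creatine kinase gene), and *Ckb* was the single flanking locus past 1.5-fold. No flanking locus of the 3 receptor genes was at least 1.5-fold lower in mutant embryos. Among all loci averaging 1 FPKM or more, 1.53% were that much lower and 3.72% that much higher. With so few flanking loci, their counts cannot be told from these shares.

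Reads shared with other genes could blur some of these values, since the libraries kept no strand. In GENCODE M21, 1.59% of the 100-base windows of the *Cubn* transcript also occur, on either strand, in *Gm13270*, a noncoding transcript that runs opposite to the 3′ part of *Cubn*. For *Amn*, *Lrp2*, *Dab2*, *Lgmn* and *Lrpap1* no window was shared with another gene's transcript. For *Ctsl* 25.4% of windows were shared, with *Gm47123* and *Gm49230*, all in a part of its longest transcript that lies outside the locus the authors list.

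The embryos were checked for genes that mark visceral endoderm. The yolk sac, where that tissue lies at this stage, had been used for genotyping. Over 20 marker genes the summed level was 109 FPKM in wildtype and 82.4 FPKM in mutant embryos, with *Cldn6* (claudin 6, a tight junction gene of several embryonic epithelia) the most abundant at 46.3 and 34.8 FPKM. *Hnf4a*, a transcription factor gene that defines visceral endoderm, was at 0.401 FPKM in wildtype and 0.449 FPKM in mutant embryos, and the ligand gene *Gif*, which encodes intrinsic factor, was listed at 0 in both. In wildtype embryos *Rbp4* (11.8 FPKM), *Spink3* (10.5 FPKM), *Afp* (8.10 FPKM) and *Ttr* (7.51 FPKM) were next in level after *Cldn6* among the markers. No sample of visceral endoderm alone was analysed here, so the share of that tissue in these embryos cannot be given, and *Dab2*, *Ctsl*, *Lgmn* and *Lrpap1* cannot be assigned to that tissue from these data. In pooled tissue, fewer cells of a type and less RNA per cell cannot be told apart.

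Visceral endoderm markers went both ways. Of 12 whose mean was 1 FPKM or more, 5 were at least 1.5-fold lower and 4 at least 1.5-fold higher in mutant embryos, with a median log2 ratio of -0.33. The shares over all loci of that level were 1.53% lower and 3.72% higher. *Spink3*, a protease inhibitor gene, was at 10.5 FPKM in wildtype and 1.76 FPKM in mutant embryos (-2.58 on the log2 scale). *Ttr*, which encodes the thyroxine carrier transthyretin, was at 7.51 and 2.48 FPKM (-1.60). *Apom* (-1.34), *Apoa1* (-0.90) and *Rbp4* (-0.86), genes of lipid and retinol carriers, completed those past 1.5-fold on that side. In the other direction, *Apoa2* was at 0.913 FPKM in wildtype and 2.77 FPKM in mutant embryos (1.60), and *Afp* (0.86), *Trf* (0.77) and *Fgb* (0.63), which encode secreted proteins of endoderm and liver, were also higher. Markers below that level included *Apoc2*, at 1.77 and 0.115 FPKM (-3.95), *Apob*, at 1.52 and 0.346 FPKM (-2.14), and *Tdh*, which encodes threonine dehydrogenase, at 1.13 and 0.281 FPKM (-2.01). Also below it, *Fgg*, at 0.257 FPKM in wildtype and 0.647 FPKM in mutant embryos (1.33), and *Fga* (0.61) were higher. Over all 20 markers at any level, 13 were lower and 7 higher in mutant embryos.

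**Figure D3:**
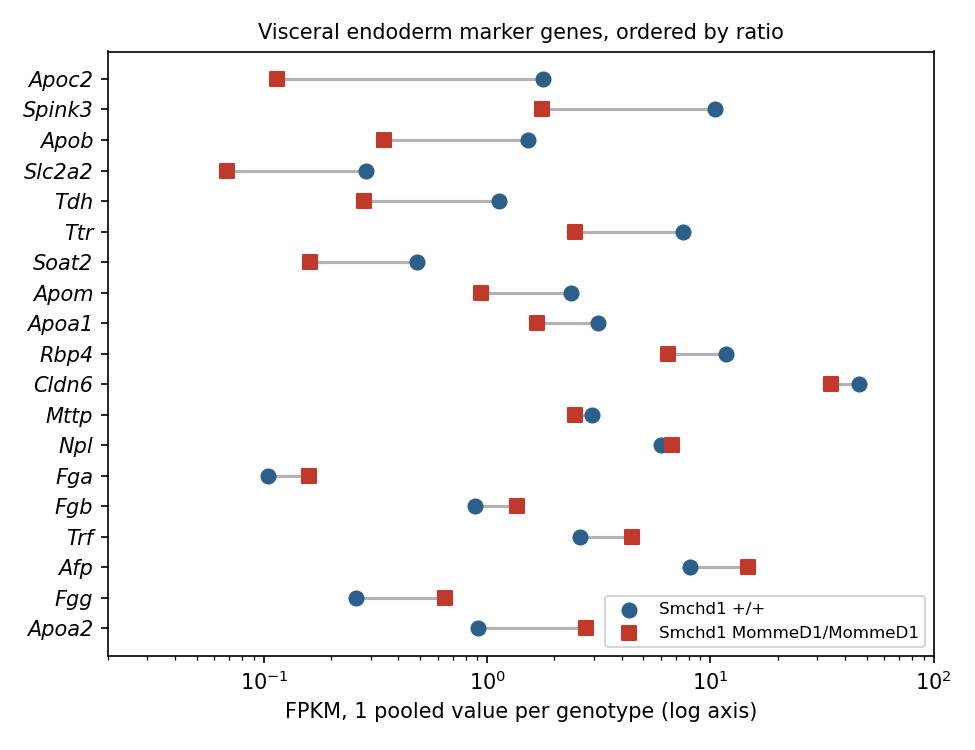
FPKM on a log axis for the 19 visceral endoderm markers whose mean was 0.1 FPKM or more, 1 pooled value per genotype (blue circles for *Smchd1+/+*, red squares for *Smchd1MommeD1/MommeD1*), ordered by ratio from the lowest. *Apoc2*, *Spink3* and *Apob* at the top were lower in mutant embryos, and *Afp*, *Fgg* and *Apoa2* at the bottom were higher.

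The loci most like *Cubn* were found by the distance between log2 FPKM values over the 2 genotypes. Among single-gene loci whose mean was 1 FPKM or more, a level that *Cubn* itself did not reach, the nearest were *Cer1* (distance 1.75), *Pyy* (2.01), *Galnt3* (2.22), *Gm3716* (2.30) and *Art5* (2.30). *Cer1*, which encodes the secreted inhibitor cerberus, was at 1.51 FPKM in wildtype and 0.526 FPKM in mutant embryos. When loci down to a mean of 0.1 FPKM were admitted, a change made after the values were seen, the nearest were *Apoc2* (0.592), *Trap1a* (0.668), *Tdh* (0.877), *S100g* (0.948) and *Eras* (0.956), of which *Apoc2* and *Tdh* are among the visceral endoderm markers. For *Amn* the nearest by the first rule were again *Cer1* (2.71) and *Galnt3* (3.002), then *Slc7a3* (3.04), *Art5* (3.06) and *Fgfr4* (3.07). With lower loci admitted they were *Cfc1* (0.0991), *Nxf3* (0.253), *Ppef2* (0.284), *Pglyrp3* (0.291) and *Mesp2* (0.307). This likeness rests on 2 pooled values a gene, and the marker list was chosen with earlier results of these data known. The overlap with the markers is therefore described and not tested.

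Other endocytic receptors differed little between the genotypes. Of 18 genes of the LDL receptor family and other uptake receptors whose mean was 1 FPKM or more, none was at least 1.5-fold lower and 1 was at least 1.5-fold higher, namely *Fcgrt*, the neonatal Fc receptor gene, at 1.60 FPKM in wildtype and 2.83 FPKM in mutant embryos (0.82 on the log2 scale). Beside this, 1.53% of all loci of that level were at least 1.5-fold lower and 3.72% at least 1.5-fold higher. The median log2 ratio of these 18 receptor genes was -0.0072, and it changed sign under both other scalings. *Sorl1* (-0.32) and *Vldlr* (-0.28), which are members of the megalin family, had the next largest ratios. The transferrin receptor gene *Tfrc* was the most abundant, at 60.1 and 60.0 FPKM. *Lrp1*, the large receptor closest in build to megalin, was at 18.4 FPKM in wildtype and 16.4 FPKM in mutant embryos (-0.17).

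The uptake machinery downstream of the receptors differed as little. All 36 genes of the clathrin coat, its adaptors and apical recycling whose mean was 1 FPKM or more lay within 1.5-fold, with a median log2 ratio of 0.0054. The extremes were *Dab1* (-0.43), the neuronal relative of *Dab2*, *Cltb* (0.36) and *Rab5a* (-0.30), while the light chain gene *Clta* was the most abundant at 154 and 140 FPKM (-0.13). All 31 genes of cathepsins and other lysosomal proteins also lay within 1.5-fold, with a median of 0.0040. So did most loci averaging 1 FPKM or more, of which 1.53% were at least 1.5-fold lower and 3.72% at least 1.5-fold higher. *Ctsh* (-0.49), *Psap* (0.37) and *Gla* (-0.26) had the largest ratios, and *Laptm4a* was the most abundant at 184 and 176 FPKM (-0.06).

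The cargo of the receptors was mixed. Of 10 genes of cubilin and megalin ligands whose mean was 1 FPKM or more, 3 were at least 1.5-fold lower, the already named *Ttr*, *Apoa1* and *Rbp4*, and 2 at least 1.5-fold higher, *Trf* and *Ambp* (0.95, encoding a plasma protein precursor). Of all loci of that level, 1.53% were that much lower and 3.72% that much higher. *Apoe*, the most abundant, was at 22.3 FPKM in wildtype and 18.0 FPKM in mutant embryos (-0.31). The 13 genes of vitamin B12 uptake and use all lay within 1.5-fold, as most loci of that level did by the same shares. Their median log2 ratio was -0.026, and it changed sign after rescaling to the same total. Among them *Mcee* (0.36), *Mmaa* (0.28) and *Mmab* (0.25) had the largest ratios, *Mmadhc* was the most abundant at 68.4 and 64.1 FPKM, and *Cd320*, the receptor gene for B12 bound to transcobalamin, was at 19.4 and 17.4 FPKM (-0.16).

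Transcription factor genes of visceral endoderm showed small differences in 1 direction. All 7 whose mean was 1 FPKM or more were lower in mutant embryos, as were 51.8% of all loci of that level. They all lay within 1.5-fold, as most loci did, with a median log2 ratio of -0.13. *Cited1*, the most abundant, was at 25.3 FPKM in wildtype and 18.1 FPKM in mutant embryos (-0.48), and was followed by *Gata4* (-0.44) and *Gata6* (-0.21). These factors also act in heart and gut.

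**Figure D4:**
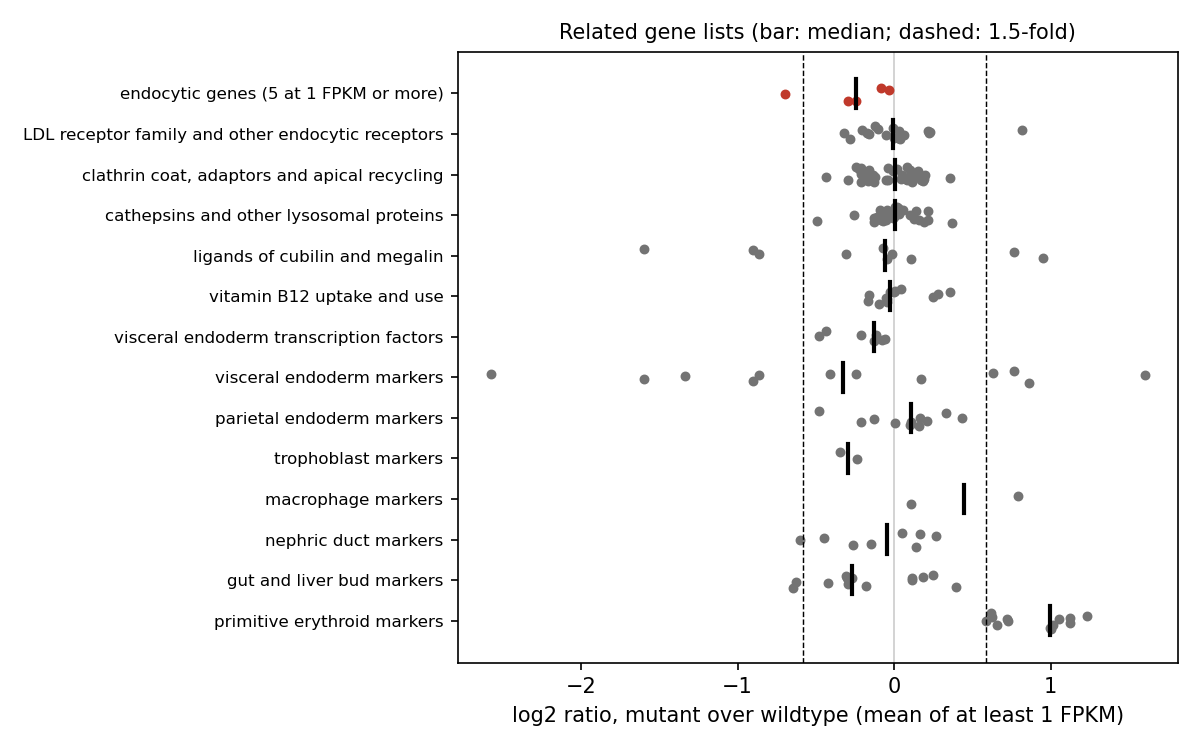
Log2 ratio of mutant over wildtype for each gene whose mean was 1 FPKM or more, by list, with the list median as a bar and dashed lines at 1.5-fold, and the 5 endocytic genes of that level in red. The receptor, clathrin, lysosomal and vitamin B12 lists centre near 0, visceral endoderm markers spread to both sides from -2.58 to 1.60, and primitive erythroid markers lie on the right.

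Markers of other cell types that carry these genes were compared beside them. *Lrp2* and *Cubn* are known from kidney epithelium, and of 8 nephric duct markers whose mean was 1 FPKM or more, 1 was at least 1.5-fold lower, *Pax8* at 2.16 FPKM in wildtype and 1.43 FPKM in mutant embryos (-0.60), followed by *Ret* (-0.45) and *Osr1* (-0.27), while *Wfdc2*, the most abundant, was at 19.6 and 20.3 FPKM. That list was split evenly, with 4 lower and 4 higher, the latter up to 0.26 for *Emx2*, and its median log2 ratio was -0.05. Of 13 gut and liver bud markers, 2 were at least 1.5-fold lower, the epithelial keratin genes *Krt8*, at 73.1 FPKM in wildtype and 46.8 FPKM in mutant embryos (-0.64), and *Krt18* (-0.63), and *Krt19* had -0.43. In all 8 of the 13 were lower and 5 higher, namely *Foxp2* (0.39), *Prox1* (0.25), *Nkx2-1* (0.19), *Shh* (0.12) and *Sox2* (0.11). In whole embryos the values of this list cannot be assigned to gut or liver bud. The liver gene *Alb*, under 1 FPKM on average, was at 0.329 FPKM in wildtype and 1.09 FPKM in mutant embryos (1.73). The median of that list was -0.27 and its summed level 275 FPKM in wildtype and 217 FPKM in mutant embryos. Beside the counts of both lists, 1.53% of all loci averaging 1 FPKM or more were at least 1.5-fold lower.

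Macrophages are rich in *Dab2* and lysosomal proteases. All 17 macrophage markers above 0 in both genotypes were higher in mutant embryos, but their summed level was only 4.05 FPKM in wildtype and 8.60 FPKM in mutant embryos, and 2 had a mean of at least 1 FPKM, *Laptm5* at 1.70 and 2.95 FPKM (0.79) and *Cd68* at 1.04 and 1.12 FPKM (0.10). The others were under 1 FPKM on average, and all loci averaging 0.1 to 1 FPKM had a median log2 ratio of 0.13. At any level, 15 of the 17 were at least 1.5-fold higher. The largest ratio was 4.14 for *C1qa*, at 0.0146 FPKM in wildtype and 0.257 FPKM in mutant embryos. The share of all loci below 1 FPKM that were that much higher was not taken. *Ptprc*, the leukocyte marker, was listed at 0 in wildtype. Of 11 parietal endoderm markers none was past 1.5-fold (median 0.11), with *Fst* (-0.48), *Pth1r* (0.44) and *Nid1* (0.33) at the extremes and *Sparc* the most abundant at 84.0 and 94.2 FPKM. Of 18 trophoblast markers 13 were listed at 0 in both genotypes, among them all the placental cathepsins related to *Ctsl*, and the 2 whose mean was 1 FPKM or more, *Hand1* (-0.35) and *Plac1* (-0.24), were lower in mutant embryos. Of the 5 above 0 in both genotypes, 3 were lower and 2 higher, *Ascl2* (0.47) and *Prl3b1* (0.39), both under 1 FPKM on average. Primitive erythroid markers were higher in mutant embryos at all 13 entries, 12 of them by at least 1.5-fold, with a median of 0.996, from 1787 to 4191 FPKM for *Hbb-y* (1.23) and from 2274 to 4602 FPKM for *Hba-x* (1.02), and at both entries of *Hba-a1* (1.12 each), near-identical copies that share reads. Among all loci averaging 1 FPKM or more, 3.72% were at least 1.5-fold higher. The part of these tissues in the values of the endocytic genes was not tested.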

How the data were processed

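The authors sequenced RNA of 3 *Smchd1+/+* and 3 *Smchd1MommeD1/MommeD1* male E9.5 embryos. Per the labels' processing notes, reads were aligned to mm10 with TopHat2 2.0.6 and Bowtie2 2.0.2, and values came from Cufflinks and Cuffdiff 2.0.2. The study's text names RefSeq genes without a release. The deposited FPKM values are 1 per genotype and locus, pooled by the authors. The table calls its columns Smchd1_M and Smchd1_P, and the study's own copy of the table names them as mutant and wildtype. Its other columns, the authors' fold changes, test statistics and p-values, were not used, apart from the status word for *Amn*.

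The members and gene lists were chosen with earlier results of these data known. Log2 ratios of mutant over wildtype were taken without a pseudocount. Loci were counted where both values were above 0 and averaged 1 FPKM or more, and a difference was counted at 1.5-fold. The genes named were the members and, from each list, the 3 with the largest ratio, the most abundant, and the 5 loci nearest to *Cubn* and *Amn*. Other genes named, such as flanking loci, *Lrp1*, *Cd320* and markers under 1 FPKM, were chosen after their values were seen. Pooled values and unknown depth allow no interval or test. Alternatives were other pseudocounts, scalings, folds and filters. Locus starts are counted from 1. The annotation was GENCODE M21, promoters came from RefSeq (GRCm38.p6), and all 7 members matched, with 9 promoters. *Cubn*, *Amn* and *Lrp2*, whose promoters are shown, had 1 each. Ratio and motif steps were tested on simulated data. Python 3.11.15, numpy 2.4.6, pandas 2.3.3 and matplotlib 3.10.9 were used.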

Additional observations from a re-analysis of the deposited data

How the results depend on the processing

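Of 28 alternatives for the log2 ratios of the 7 endocytic genes, 25 kept the direction and the side of 1.5-fold. Adding 1 FPKM to each value took *Amn* to -0.36 and *Lrp2* to -0.57, both under 1.5-fold, and *Cubn* from -3.12 to -1.03, since these genes are low. Rescaling to the same total, a shift of 0.043 on the log2 scale, took *Lrpap1* to 0.011. Centring on the median locus shifted ratios by 0.0076. The number of endocytic genes at least 1.5-fold lower, reported as 1, was 0 with 1 FPKM added, 0 at 2-fold and 0 for loci averaging 5 FPKM or more, and 3 for loci averaging 0.1 FPKM or more, which admits *Cubn* and *Amn*. It was 0 for higher values in every alternative run.

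Of 65 alternatives for list medians, 58 kept direction and side. The other endocytic receptors went to 0.036 after rescaling to the same total and 0.00046 after centring, and vitamin B12 genes to 0.018 after rescaling, all near 0 before. For loci averaging 0.1 FPKM or more, visceral endoderm markers had a median of -0.86, macrophage markers 1.41, trophoblast markers 0.077 and nephric duct markers 0.050, through the genes added. Leaving out each embryo was not possible with pooled values. No paired analysis was possible because 1 pooled value per genotype was used.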
